A study of Mus musculus with 39 samples.

Results

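The adult β-globin genes were followed by NG Capture-C from 2 viewpoints, Hbb-b1 and Hbb-b2, which were kept apart throughout. They are 2 of the 22 viewpoint fragments of the series, chosen by name, and were read in every library whose file holds both, 21 of 39 libraries. NG Capture-C cuts crosslinked chromatin with DpnII, joins ends that lie close together in the nucleus, and enriches by oligonucleotide capture the joined fragments that contain a chosen viewpoint. The values are therefore interaction frequencies of the 2 genes with other DNA, not gene expression, and hold no expression markers against which the cell type could be checked.

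All cells were erythroid cells grown from disaggregated foetal livers of mice labelled C57Bl6, although the study's methods describe its mutant and wild-type strains as kept on a mixed background. The cultures were depleted of Ter119-expressing cells and sorted on CD44 and cell size. In the study's methods these steps came before the 30 h in differentiation medium. BrdU was present for the last hours of culture. MFL 0 h and MFL 30 h were wild-type cells sampled before and after 30 h in differentiation medium, with 3 replicates each and every replicate sequenced in 2 runs. WT and DKO were a separate experiment at 30 h with 3 replicates each, where DKO cells lack the α-globin regulatory regions R1 and R2 on both copies of chromosome 11 and carry no stated change of the β-globin locus on chromosome 7. A further 3 single wild-type 30 h libraries were untreated, treated for 3 h with the vehicle DMSO, or treated for 3 h with DRB in DMSO, DRB being an inhibitor of transcriptional elongation. In the study's methods the DRB experiments had little material and used a low-input version of the protocol, unlike the other experiments. The replicates of the grouped libraries are labelled biological, but nothing says that they came from separate animals. The p-values therefore measure the spread between these libraries.

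Mouse adult haemoglobin pairs α-globin chains with β-globin chains made from these genes. Upstream of them lie embryonic β-like genes (Hbb-y, Hbb-bh1) that serve earlier red cells, and beyond those the locus control region (LCR), a cluster of DNase I hypersensitive sites that acts as the enhancer of the whole family. In erythroid cells the LCR is known to contact the active adult genes with the embryonic genes looped out between them, and the domain is flanked by olfactory receptor genes that red cells do not use. HS1 and HS2 are sites within the LCR, HS2 being its best known classical enhancer, and HS60 and HS90 are sites on the far side of it.

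On mm9 the Hbb-b1 viewpoint is chr7:110961967-110962817 (851 bases) and the Hbb-b2 viewpoint is chr7:110975976-110976456 (481 bases). Both lie at the 5′ end of a gene on the minus strand and span most of exon 2, intron 1 and exon 1. The names are crossed between sources. The viewpoint labelled Hbb-b1 lies on the gene that the GENCODE vM1 annotation calls Hbb-b2 and RefSeq calls Hbb-bt, and the viewpoint labelled Hbb-b2 lies on GENCODE Hbb-b1, RefSeq Hbb-bs. The labels' names are used here. The Hbb-b1 fragment holds 380 bases upstream of the RefSeq start and 471 transcribed bases, whereas the Hbb-b2 fragment holds 14 and 467. The transcribed parts are 97.0% identical (457 of 471 aligned positions), with 1 identical stretch of 258 bases, so reads within that stretch cannot be told apart by sequence alone. How the capture assigned them was not tested. The 250 bases before the starts are 70.9% identical. The promoters are shown because they differ where the captured transcribed parts hardly do, with the searched motifs in capitals (5′ to 3′ along the gene, RefSeq start, matched to mm9).
Hbb-b1 promoter, chr7:110962438-110962687, minus strand: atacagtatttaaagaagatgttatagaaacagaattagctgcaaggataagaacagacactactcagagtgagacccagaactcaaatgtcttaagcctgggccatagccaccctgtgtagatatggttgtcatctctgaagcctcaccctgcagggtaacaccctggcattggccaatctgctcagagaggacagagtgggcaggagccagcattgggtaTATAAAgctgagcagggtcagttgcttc
Hbb-b2 promoter, chr7:110976443-110976692, minus strand: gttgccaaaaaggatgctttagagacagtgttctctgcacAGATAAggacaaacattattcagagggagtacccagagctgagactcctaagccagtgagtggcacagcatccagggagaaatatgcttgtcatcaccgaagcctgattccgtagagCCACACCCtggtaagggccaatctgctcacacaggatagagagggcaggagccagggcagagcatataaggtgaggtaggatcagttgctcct
The capitals mark TATAAA, 28 bases before the start of Hbb-b1, and AGATAA and CCACACCC, 210 and 93 bases before the start of Hbb-b2. AGATAA is the letters of a GATA1 site and CCACACCC those of the CACC box bound by KLF1, both erythroid factors. On either strand, AGATAA occurs in 9.99%, CCACACCC in 3.20% and TATAAA in 12.4% of the same 250-base window of 32841 genes in the RefSeq table. The motifs searched on both strands were the GATA1 letters AGATAA, with the forms TGATAA or AGATAG or also TGATAG, the CACC box CCACACCC, the NF-E2 core TGAGTCA and its extended form with 3 more letters before it, which contains the core, the E-box CANNTG with its forms CAGATG or else CAGCTG, the CTCF core letters AGGGGGC or else AGGTGGC, and the TATA forms ATAAAA or else TATAAA. The remaining matches in the promoters were CANNTG, 2 in Hbb-b1 and 1 in Hbb-b2, which are not capitalised.

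The LCR fragments HS2 and HS1 are shown because contacts with them differed between 0 h and 30 h from both genes. HS1 is given as the last 300 of its 421 bases.
HS2, chr7:111009552-111009747, plus strand: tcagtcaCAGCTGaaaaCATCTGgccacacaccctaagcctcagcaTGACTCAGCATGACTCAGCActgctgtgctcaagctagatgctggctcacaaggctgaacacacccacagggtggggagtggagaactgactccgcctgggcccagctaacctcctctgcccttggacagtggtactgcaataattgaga
HS1, chr7:111007629-111007928, plus strand: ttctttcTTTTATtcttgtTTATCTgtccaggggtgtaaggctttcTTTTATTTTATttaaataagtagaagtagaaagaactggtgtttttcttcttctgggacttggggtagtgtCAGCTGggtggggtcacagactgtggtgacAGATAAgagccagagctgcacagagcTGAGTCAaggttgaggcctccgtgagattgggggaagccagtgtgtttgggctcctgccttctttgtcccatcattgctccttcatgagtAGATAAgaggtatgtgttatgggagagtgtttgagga
In HS2 the capitals mark 2 head-to-tail copies of the extended NF-E2 motif on the reverse strand, bases 47 to 56 and 57 to 66, and the E-box forms CAGCTG and, reversed, CAGATG. NF-E2 is an erythroid activator of globin genes. At least 1 match to the extended motif occurs in 0.0962% of 723797 windows of 196 bases laid along chromosome 7. In HS1 they mark 3 matches to AGATAA (found in 17.9% of 300-base windows), 1 to TGAGTCA (4.71%), 1 to CAGCTG (11.4%) and 3 to ATAAAA (34.9%). These are matches of letters and not binding measurements.

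Both genes face the LCR from the same side at different distances. The LCR was taken as the 18.2 kb that start with the base after the 5′ end of Hbb-y (chr7:111000259-111001754, minus strand). Its near edge lies 25.5 kb from the centre of the Hbb-b2 viewpoint and 39.4 kb from that of Hbb-b1, the genes being 13.8 kb apart. HS60 lies 85.6 kb from Hbb-b2 and 99.5 kb from Hbb-b1, and HS90 116 kb and 130 kb. The deposited values were reads per 100000 reporter reads of a viewpoint over the genome, from which whole reads could be recovered. Per library and viewpoint there were 1088 to 25573 reporter reads, of which 536 to 15056 lay on chromosome 7 (cis, 48.0 to 73.1%). Values below are shares of, or numbers per 100000, cis interactions, without the 1 kb around each captured viewpoint. Among the DKO libraries replicate 1 stood apart in the data of both genes. Over 2 kb bins its chi-square per degree of freedom against replicates 2 and 3 was 2.26 and 2.16 from Hbb-b1. Those 2 gave 0.987 against each other. From Hbb-b2 the values were 2.89 and 2.30, beside 1.37. Replicate 1 was the shallowest DKO library from Hbb-b1 (1302 cis reads) and the deepest from Hbb-b2 (7876). From Hbb-b1 it gave 5.37% of cis interactions to the interval between the genes, against 12.8% and 12.6% in DKO replicates 2 and 3. Differences between DKO and WT from Hbb-b1 are given without DKO replicate 1 where that changes them. By the same chi-square the MFL 0 h replicates differed more from each other, at 3.36 to 5.61 over both genes. Their first runs were also mostly deeper (5859 to 15056 cis reads), and this measure rises with depth. Pairs of replicates gave 1.22 to 1.85 in MFL 30 h and 1.02 to 1.47 in WT.

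Across the locus the 2 genes had nearly the same interaction profile. Over 117 bins of 2 kb, the correlation of mean log2 values between Hbb-b1 and Hbb-b2 was 0.97 at 0 h, 0.96 in MFL 30 h, 0.92 in WT and 0.87 in DKO. The other chromosome 7 viewpoints were less alike: with HS60 the correlation was 0.56 to 0.68 over these groups and both genes, and with HS90 0.29 to 0.37. These are descriptions over bins of the same libraries, which share their depth and the decline with distance, and the bins nearest each viewpoint are closer to one gene than the other. At the level of the 40 DpnII fragments of the LCR (26 to 1550 bases, median 429) the patterns from the 2 genes also ran together, with a correlation of 0.96 at both 0 h and 30 h, 0.94 in WT and 0.86 in DKO. The captured transcribed parts of the 2 genes are 97.0% identical. Whether mixing of reads between the 2 viewpoints adds to these likenesses was not tested.

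**Figure D1:**
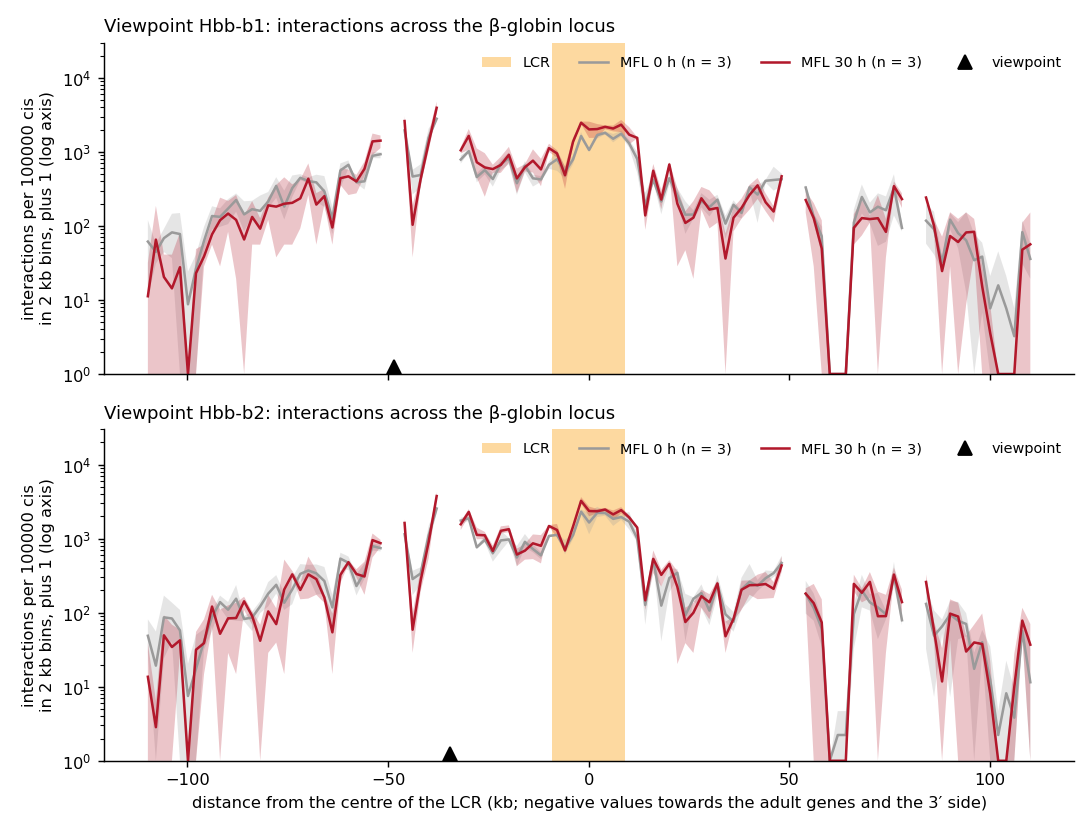
Interactions per 100000 cis interactions in 2 kb bins (log axis, 1 added) against the distance in kb from the centre of the LCR, from Hbb-b1 (upper panel) and Hbb-b2 (lower panel). Lines are means of 3 replicates at 0 h (grey) and 30 h (red), bands run from the lowest to the highest replicate, triangles mark the viewpoints, and gaps are bins left out around captured viewpoints. From both genes interactions stay high from within the LCR (shaded) to just past its far edge and then fall, and over most of the LCR the red line lies above the grey one.

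The first question was whether contacts of each adult gene with the LCR differ between the early (0 h) and late (30 h) populations. From both genes the share of cis interactions on the LCR was larger at 30 h in every replicate, by a margin that 3 replicates cannot take past the threshold. From Hbb-b1 the share was 11.3%, 11.6% and 11.9% in the 0 h replicates and 16.0%, 15.8% and 16.1% in the 30 h replicates. Every 30 h replicate lay above every 0 h replicate and the gap was larger than the spread within either group (11.6 ± 0.328% against 16.0 ± 0.156%, SD, n = 3). From Hbb-b2 it was 16.6%, 15.1% and 14.1% at 0 h and 18.0%, 19.0% and 18.6% at 30 h. Here too the groups did not overlap (15.2 ± 1.24% against 18.5 ± 0.501%), with a wider spread at 0 h. The log2 difference was 0.46 from Hbb-b1 and 0.28 from Hbb-b2, each with p = 0.1 in a two-sided exact permutation test, the smallest that 3 against 3 allows, and 0.233 after Benjamini-Hochberg adjustment over 28 tests of shares. The 2 genes' changes could not be told apart: the log2 ratio of Hbb-b2 to Hbb-b1 within a library was 0.39 ± 0.157 at 0 h and 0.21 ± 0.0507 at 30 h, groups that overlap (difference -0.18, exact permutation p = 0.2).

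The share of reads in cis was itself lower at 30 h, with mean 53.3% against 58.7% from Hbb-b1 and 53.6% against 59.1% from Hbb-b2. The log2 ratio of these means was -0.14 from either gene. Scaled to reads on all chromosomes, the LCR differences were 0.30 from Hbb-b1 (exact permutation p = 0.1) and 0.13 from Hbb-b2, where the groups then overlapped (p = 0.5). As shares of fragments within 500 kb of the viewpoint they were 0.29 (exact permutation p = 0.1) and 0.13, again with overlap from Hbb-b2 (p = 0.2). The separate WT libraries at 30 h, also wild-type, bear on the size of the change. They gave 12.7%, 13.1% and 12.9% from Hbb-b1, between the MFL 0 h and 30 h values, and 21.0%, 22.3% and 24.5% from Hbb-b2, above both. The 2 wild-type 30 h experiments thus did not overlap from either gene, and the gap between them was of the same order as the difference between 0 h and 30 h.

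**Figure D2:**
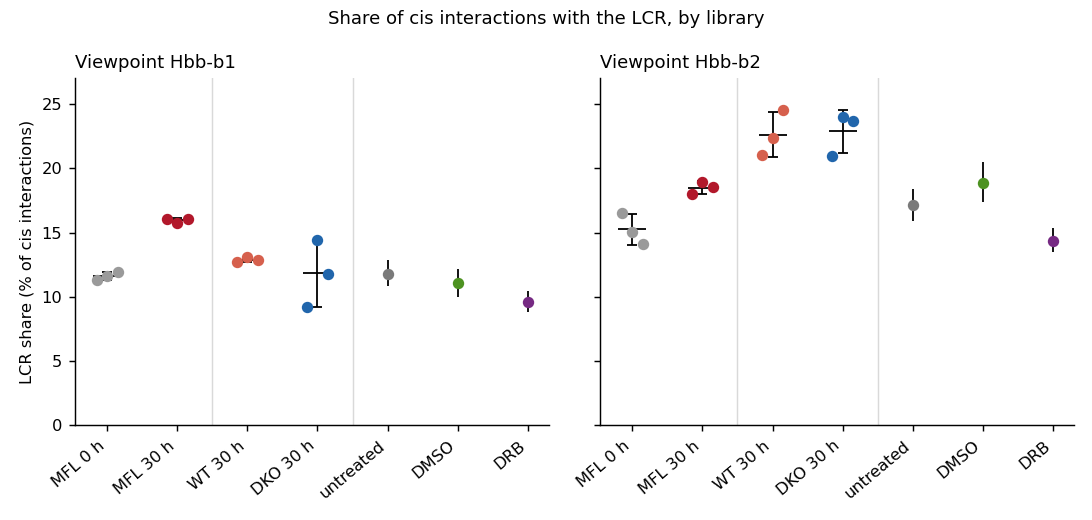
Share of cis interactions that fall on the LCR (%) in each library, from Hbb-b1 (left) and Hbb-b2 (right). Points are replicates, horizontal marks and bars the mean and SD of 3, and for the single untreated, DMSO and DRB libraries bars are 95% Wilson intervals, which cover counting error only. The MFL 30 h points lie above the MFL 0 h points in both panels, the WT and DKO points overlap, and the Hbb-b2 point lies above the Hbb-b1 point of the same library throughout.

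Within the LCR the difference at 30 h was unequal. HS2, the classical enhancer, was higher at 30 h from both genes. From Hbb-b1 it had 35.9, 122 and 194 interactions per 100000 cis at 0 h and 358, 398 and 285 at 30 h, a ratio of means of 2.96. From Hbb-b2 it had 245, 176 and 220 at 0 h and 290, 696 and 443 at 30 h, a ratio of 2.23. The groups did not overlap from either gene, though they rest on few reads, 3, 18 and 33 in the first run of the 0 h replicates and 6, 11 and 21 in that of the 30 h replicates from Hbb-b1. From Hbb-b2 the first runs held 15, 11 and 32 (0 h) and 9, 27 and 43 (30 h). There the lowest 30 h value, 290, with 9 reads in its first run, lies close to the highest 0 h value, 245. These single fragments were not tested. HS1, nearer to the genes, did not overlap either. Its replicates from Hbb-b1 held 251, 319 and 335 (0 h) and 798, 751 and 590 (30 h), a ratio of 2.36. Those from Hbb-b2 held 420, 423 and 616 (0 h) and 773, 763 and 773 (30 h), a ratio of 1.58. The fragment next to HS2, chr7:111009748-111010461, with the highest WT mean from Hbb-b1, held 412 to 478 in the 0 h and 743 to 1169 in the 30 h replicates of Hbb-b1, and 461 to 860 and 992 to 1218 in those of Hbb-b2. Of the other fragments named for their WT level, chr7:111014740-111015418 had overlapping values from both genes, with ratios of 0.875 and 1.00. The remaining 2 overlapped from Hbb-b1 and were higher at 30 h without overlap from Hbb-b2, chr7:111008142-111009073 at 725 to 782 (0 h) and 889 to 1265 (30 h) and chr7:111016072-111016871 at 494 to 664 and 676 to 742.

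Per kb of fragment HS2 stood higher in the order of LCR contacts at 30 h. The order was first taken among the 30 LCR fragments of at least 150 bases, a limit set after the values were seen. Among them HS2 ranked 19th at 0 h and 3rd in MFL 30 h from Hbb-b1 (597 ± 403 and 1770 ± 292 interactions per kb per 100000 cis). From Hbb-b2 it ranked 12th and 2nd (1088 ± 178 and 2431 ± 1047 per kb). In WT it was first of these 30 from both genes, at 2135 ± 339 and 4172 ± 614 per kb. Without the limit HS2 ranked lower, 28th at 0 h and 11th in MFL 30 h from Hbb-b1, and 20th and 9th from Hbb-b2. In WT it then ranked 8th from Hbb-b1 and 4th from Hbb-b2, below fragments of under 150 bases. Counted over all LCR fragments with a mean of at least 50 per 100000 cis, 12 of 38 from Hbb-b1 were above every 0 h value in all 30 h replicates and 0 were below. That compares with 16.2% higher and 5.86% lower among the 222 fragments of chromosome 7 that passed the same limit. From Hbb-b2 it was 12 higher and 3 lower of 39, against 17.8% and 5.58% of 197.

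**Figure D3:**
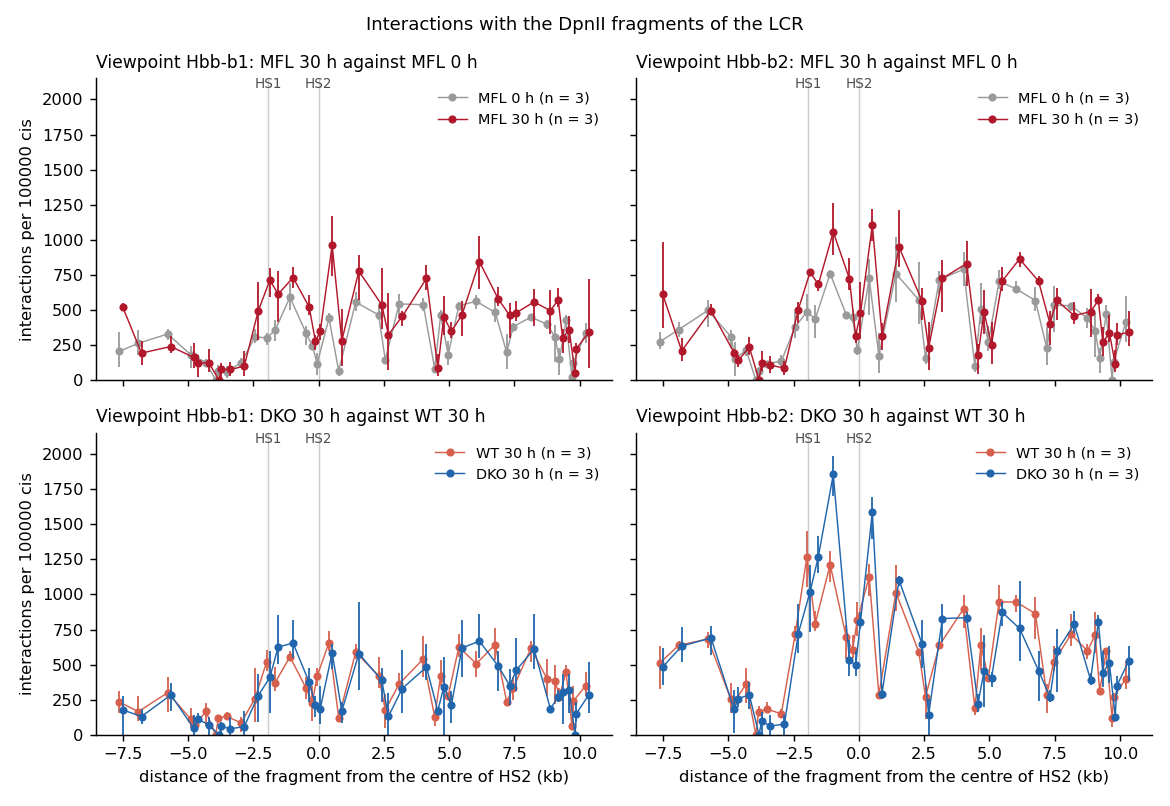
Interactions per 100000 cis with each DpnII fragment of the LCR against its distance in kb from the centre of HS2, from Hbb-b1 (left) and Hbb-b2 (right). The upper panels compare MFL 0 h (grey) with MFL 30 h (red) and the lower panels WT (light red) with DKO (blue), points are means of 3 replicates and vertical lines run from the lowest to the highest. HS1 and HS2 lie clear of their 0 h range at 30 h in the upper panels. In the lower right panel a fragment between HS1 and HS2 and the fragment just beyond HS2 reach higher in DKO than in WT.

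No single 2 kb bin passed the threshold between 0 h and 30 h. With limma on log2(value + 10) and Benjamini-Hochberg adjustment, 0 of 117 bins from Hbb-b1 (0%) and 0 of 106 from Hbb-b2 (0%) had an adjusted p of at most 0.05, with 15 and 9 at an unadjusted p under 0.05. edgeR on the recovered reads called 5 bins from Hbb-b1, 3 of them higher and 1 in the LCR, and 2 from Hbb-b2, and DESeq2 called 3 and 0. Of the 9 LCR bins, 8 had a log2 change above 0 from each gene, with a median of 0.39 from Hbb-b1 and 0.21 from Hbb-b2, beside -0.24 and 0.085 over all bins tested. Bins whose replicates did not overlap and were higher at 30 h made up 5 of 9 in the LCR from Hbb-b1, against 14.5% of all bins, and 3 of 9 from Hbb-b2, against 14.2%. In the LCR 0 of 9 were lower without overlap from either gene, against 6.84% and 9.43% of all bins. One bin between the genes, chr7:110966000-110967999, was among the edgeR calls from both and was lower at 30 h, with 266 to 574 in the 0 h and 36.7 to 189 in the 30 h replicates of Hbb-b1, and 172 to 368 and 27.7 to 96.7 in those of Hbb-b2. The WT libraries, also at 30 h, had 415 to 722 there from Hbb-b1, within or above its 0 h range, and 83.7 to 142 from Hbb-b2, so from Hbb-b1 the bin also differed between the 2 wild-type 30 h experiments. Within DKO it varied too, with 0 reads in replicate 1 from either gene. DKO replicates 2 and 3 held 15 and 14 reads there from Hbb-b1, and 5 and 2 from Hbb-b2. This bin was singled out after its values were seen.

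The DNA between the adult genes and the LCR followed the same order. The interval with the embryonic genes went from 6.86%, 7.55% and 7.64% to 9.15%, 9.71% and 10.4% from Hbb-b1 (log2 0.41), and from 11.5%, 12.8% and 11.1% to 13.7%, 13.9% and 14% from Hbb-b2 (log2 0.23). Neither pair of groups overlapped (exact permutation p = 0.1 each, the smallest possible, 0.233 adjusted). The DNA between the 2 adult genes went from 7.71 ± 0.878% to 9.48 ± 0.498% from Hbb-b1 and from 6.24 ± 0.681% to 7.84 ± 0.486% from Hbb-b2, again without overlap. Beyond the LCR, the stretch to HS60 went from 6.68 ± 0.165% to 7.55 ± 0.430% from Hbb-b1 without overlap, and overlapped from Hbb-b2 at 6.68 ± 0.742% and 7.32 ± 0.405%. These 3 intervals were added after the data were seen, and their differences depended on the denominator. Within 500 kb the log2 difference was 0.24 for the embryonic genes, 0.14 for the DNA between the genes and 0.010 for the stretch to HS60 from Hbb-b1, against 0.41, 0.30 and 0.18 above, with overlap for the last 2 (exact permutation p = 0.2 and 1). From Hbb-b2 it was 0.079, 0.18 and -0.019. Scaled to all chromosomes, the groups overlapped for all 3 intervals from both genes. Per kb of gene body, Hbb-y, the embryonic gene next to the LCR, went from 347 ± 44.3 to 589 ± 48.7 interactions per 100000 cis from Hbb-b1 and from 606 ± 13.0 to 787 ± 6.00 from Hbb-b2, without overlap. Hbb-bh1, an embryonic gene nearer to the adult genes, overlapped from both, at 460 ± 97.5 and 441 ± 74.1 from Hbb-b1 and 529 ± 53.7 and 683 ± 108 from Hbb-b2. Hbb-bh2, measured by 1 fragment, went from 197 ± 26.1 to 432 ± 171 from Hbb-b1, without overlap, and from 279 ± 122 to 464 ± 184 from Hbb-b2, with overlap. Values of the adult genes themselves, as seen from each other, could not be read, because reads between captured fragments are absent from the files.

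Contacts on the 3′ side of the genes, away from the LCR (60.0 kb that end just short of the Hbb-b1 viewpoint), overlapped between the times as shares of all cis interactions. From Hbb-b1 they took 8.45%, 8.57% and 7.35% at 0 h and 7.29%, 7.49% and 8.13% at 30 h, and from Hbb-b2 6.66%, 6.43% and 6.27% against 5.86%, 5.24% and 6.39%. The groups overlapped (log2 -0.09 and -0.15, exact permutation p = 0.3 and 0.2). As shares of fragments within 500 kb they were lower at 30 h without overlap from both genes, by -0.26 and -0.30 (exact permutation p = 0.1 each, the smallest possible). Per kb, the 4 olfactory receptor genes of this side had group means of 31.4 to 195 at 0 h from Hbb-b1 and 32.4 to 135 from Hbb-b2, with medians of 89.1 and 61.7, and at 30 h the medians were 67.1 and 62.2. Beyond the LCR the medians over 10 olfactory receptor genes were 84.0 from Hbb-b1 and 41.3 from Hbb-b2 at 0 h, with means of single genes up to 418 and 292, and 49.6 and 84.8 at 30 h. These 10 include Olfr634-ps1, Olfr636-ps1 and Olfr637-ps1, which are annotated as pseudogenes.

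The second question was how the 2 genes compare with each other. In each of the 6 wild-type 30 h replicates Hbb-b2, the nearer gene, gave a larger share of its interactions to the LCR than Hbb-b1. The mean log2 ratio was 0.51 ± 0.336 (SD, n = 6), higher in 6 of 6 (exact sign-flip permutation p = 0.03125, the smallest that 6 allow, 0.233 adjusted). Its size depended on the experiment. The 3 MFL 30 h replicates gave 0.21, 1.93 to 3.18 percentage points, and the 3 WT replicates 0.81, 8.34 to 11.7 points, each with an exact p of 0.25, the smallest for 3 pairs. The ratio was also above 0 in all 3 replicates at 0 h and in DKO, and in the single untreated, DMSO and DRB libraries.

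Since interactions fall with distance, each gene's LCR share was set beside the window at the same distances on its other side. By that measure the order turned round. From Hbb-b1 the mirrored window took 0.399%, 0.526% and 0.638% of cis interactions in MFL 30 h, so that the LCR had 31.8 times as many. From Hbb-b2 the mirrored window took 2.28%, 1.85% and 2.38%, a ratio of 8.65. In WT the ratios were 15.1 and 11.3, and at 0 h 14.8 and 5.70. In DKO the means were 10.2 from Hbb-b1 and 12.6 from Hbb-b2, and the order differed between replicates, with 6.56 and 11.1 in replicate 1, 14.6 and 11.8 in replicate 2 and 9.52 and 14.8 in replicate 3. Over the 6 wild-type 30 h replicates the log2 ratio was lower from Hbb-b2 by a mean of -1.13 ± 0.871, lower in 6 of 6 (exact permutation p = 0.03125, 0.233 adjusted), with -1.86 in MFL 30 h and -0.39 in WT. The windows are different DNA for the 2 genes, that of Hbb-b2 starting nearer to it, and the mirrored shares of Hbb-b1 are small.

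**Figure D4:**
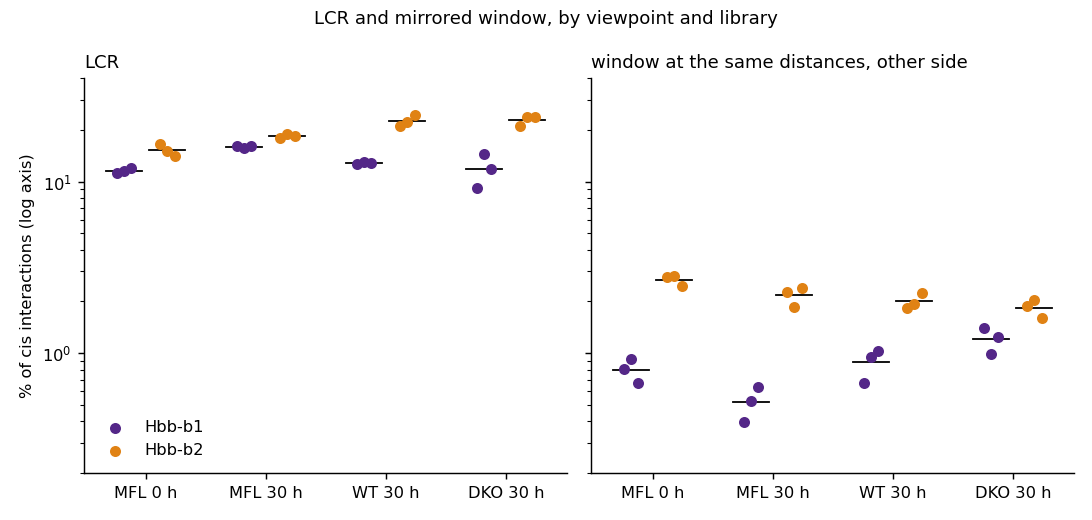
Share of cis interactions (%, log axis) on the LCR (left) and on the window at the same distances on the other side of the viewpoint (right), for Hbb-b1 (purple) and Hbb-b2 (orange). Points are replicates and horizontal lines the mean of 3. Hbb-b2 lies above Hbb-b1 in both panels, and in the 3 wild-type groups the gap is wider in the mirrored window than in the LCR.

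The third question was whether loss of the α-globin enhancers on another chromosome went with a change at the β-globin genes. As a share of all cis interactions, the LCR overlapped between DKO and WT from both genes. From Hbb-b2 it was 21.0%, 22.3% and 24.5% in WT and 21.0%, 24.0% and 23.7% in DKO (log2 0.016, exact permutation p = 1). As a share of fragments within 500 kb it was higher in DKO without overlap, by 0.13 on the log2 scale (exact permutation p = 0.1, the smallest possible), and scaled to all chromosomes it was -0.12 (p = 0.5). From Hbb-b1 it was 12.7%, 13.1% and 12.9% in WT and 9.18%, 14.5% and 11.8% in DKO, whose replicates spread more widely (SD 2.64 against 0.198 percentage points). The log2 difference from Hbb-b1 was -0.12 (exact permutation p = 0.7) and turned to 0.028 without DKO replicate 1. The log2 ratio of Hbb-b2 to Hbb-b1 was 0.98 ± 0.232 in DKO and 0.81 ± 0.106 in WT (difference 0.17, exact permutation p = 0.3, or 0.057 without DKO replicate 1). The 3′ side overlapped too, at 8.33 to 10.8% in DKO and 9.43 to 10.9% in WT from Hbb-b1 and 4.23 to 5.03% and 4.75 to 5.24% from Hbb-b2 (exact permutation p = 0.6 and 0.3). The difference of -0.08 on the log2 scale from Hbb-b1 turned to 0.020 without DKO replicate 1.

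Within the LCR some fragments separated DKO from WT in the data of Hbb-b2, in both directions. The fragment chr7:111008142-111009073, between HS1 and HS2, had 1702, 1987 and 1878 interactions per 100000 cis in DKO and 1312, 1088 and 1240 in WT. On the other side of HS2, chr7:111009748-111010461 had 1398, 1669 and 1693 in DKO and 1166, 993 and 1220 in WT. Both were higher in every DKO replicate than in any WT replicate, by ratios of 1.53 and 1.41. Towards the far end chr7:111016072-111016871 was lower, at 237, 537 and 600 in DKO and 684, 981 and 925 in WT. HS2 itself overlapped (752 to 874 in DKO and 706 to 946 in WT), as did HS1 (735 to 1214 and 1054 to 1454). In all, 4 of 39 LCR fragments were higher and 3 lower without overlap from Hbb-b2, against 5.14% and 18.9% of 175 fragments of chromosome 7. From Hbb-b1 HS2 was lower in DKO, at 77.8, 344 and 138 against 346, 476 and 433, on 1, 8 and 3 reads in DKO. The highest DKO value, 344, lay under the lowest WT value, 346, by less than 1 read, so the groups were barely apart. From that gene 1 fragment was higher and 3 lower of 38, against 6% and 10% of 250.

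limma called 1 of 133 bins from Hbb-b1 (0.752%), lower in DKO, and 0 of 91 from Hbb-b2 (0%), with 7 at an unadjusted p under 0.05 from each. Of the 9 LCR bins, 0 were higher and 1 lower in DKO without overlap from Hbb-b1, against 5.26% and 6.02% of all bins, and 2 were higher and 2 lower from Hbb-b2, against 5.49% and 15.4%. Of the 12 bins over the embryonic genes, 6 were lower without overlap from Hbb-b2 and 2 from Hbb-b1. The called bin, chr7:110810000-110811999, lies beyond the 3′ side. It held 92.3, 159 and 103 interactions per 100000 cis in WT, on 4, 5 and 5 reads, and 0 in the 3 DKO libraries (limma adjusted p 0.00508). With 0 in DKO, it reached the mean needed for testing through its WT values alone. The 3 DKO values also show no spread, so the adjusted p cannot decide whether the bin differs. In these DKO libraries a count of 0 allows up to 129 to 233. Each WT value lies under at least 1 of those limits, so at this depth the difference could not be sized, and no fold is given. The wild-type MFL 30 h replicates held 0, 83.6 and 7.69 there. edgeR called 1 other bin from Hbb-b1 and 3 from Hbb-b2, all 3 higher and 2 of them in the LCR. Those 2 were chr7:111008000-111009999 (4710 to 5233 in DKO, 3846 to 4565 in WT) and chr7:111010000-111011999 (2823 to 3063 and 2249 to 2658). The edgeR fit rescaled libraries over the tested bins and not to cis reads. Its log2 differences in the 2 LCR bins were 0.44 and 0.46, against 0.27 and 0.30 with limma. DESeq2 called 0 from either gene. Among the intervals added later, the embryonic genes took 15.9%, 17.9% and 18.7% from Hbb-b2 in DKO and 19.8%, 20.8% and 20.4% in WT (log2 -0.22), and the DNA between the genes 4.62 to 5.58% and 5.90 to 6.96% (log2 -0.37). From Hbb-b1 the stretch from the LCR to HS60 took 6.72 to 7.12% in DKO and 7.59 to 9.02% in WT (log2 -0.27). These did not overlap (exact permutation p = 0.1 each, 0.233 adjusted), and the same intervals overlapped from the other gene. For the DNA between the genes the non-overlap from Hbb-b2 held within 500 kb (-0.25) and over all chromosomes (-0.51). For the embryonic genes it ended within 500 kb (-0.11, exact permutation p = 0.2) and over all chromosomes (-0.35, p = 0.2), and for the stretch to HS60 from Hbb-b1 likewise (-0.11, p = 0.4, and -0.37, p = 0.2). With each replicate left out in turn, the log2 differences from Hbb-b2 were -0.27 to -0.15 for the embryonic genes. For the DNA between the genes they were -0.44 to -0.30.

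HS60 and HS90, beyond the LCR, could be read in full only where they were not captured. In the time course, WT and DKO they were captured as viewpoints and the files hold no reads on or next to them, so only a window widened by 2 kb on each side, less 1 kb around the site, could be read. From Hbb-b1 the HS60 window held 0 to 5 reads per DKO library and 2 to 6 per WT library, and from Hbb-b2 0 to 6 and 3 to 19, or at most 0.230% of cis interactions in any of them. The HS90 window held 2 reads in each DKO library and 3 to 12 in WT from Hbb-b1, and 3 to 9 and 5 to 8 from Hbb-b2. WT and DKO overlapped in each case (exact permutation p = 0.4 to 0.9), and differences were not detectable at this depth. In the untreated, DMSO and DRB libraries, where these sites were not captured, the HS60 fragment itself held 0, 4 and 7 reads from Hbb-b1 and 2, 2 and 10 from Hbb-b2, and HS90 2, 2 and 3 and 3, 1 and 4. With 2 kb on each side, HS60 took 16 to 50 reads there (0.566 to 0.944% of cis interactions over both genes) and HS90 13 to 29 reads (0.340 to 0.830%). Per kb and 100000 cis that is 129 to 214 for HS60 and 64.8 to 158 for HS90, beside 149 to 161 between the LCR and HS60, at most 66.2 between HS60 and HS90 and 14.2 to 19.0 beyond HS90.

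The last comparison was of DRB with DMSO, with 1 library each and so no test. The LCR share was lower with DRB from both genes. From Hbb-b1 it was 11.0% in DMSO (95% Wilson interval 9.98 to 12.2%, 336 of 3043 reads) and 9.61% in DRB (8.82 to 10.5%, 467 of 4858), a log2 ratio of -0.20 (-0.39 to -0.0085). From Hbb-b2 it was 18.9% in DMSO (17.4 to 20.5%, 456 of 2415) and 14.4% in DRB (13.5 to 15.3%, 761 of 5294), a log2 ratio of -0.39 (-0.55 to -0.24). Against the untreated library, with 11.8% and 17.1%, the ratios were -0.30 and -0.25. Within 500 kb the ratios of DRB to DMSO were smaller, -0.074 from Hbb-b1 and -0.27 from Hbb-b2. The 3′ side from Hbb-b1 was also lower with DRB than with DMSO, by a log2 ratio of -0.22 (-0.41 to -0.026), and from Hbb-b2 the ratio was 0.039 (-0.19 to 0.27). The intervals cover counting error only. The 2 control libraries also differed from each other: the 3′ side took 8.63% from Hbb-b1 untreated and 11.1% in DMSO (log2 0.36, 0.15 to 0.57). Replicates of a single group spread from 21.0% to 24.5% for the LCR share of Hbb-b2 in WT, so 1 library per treatment cannot show whether the difference exceeds the spread between libraries. The embryonic genes went from 12.6% to 10.3% from Hbb-b2 (log2 -0.29, -0.48 to -0.10) and from 7.16% to 6.96% from Hbb-b1 (log2 -0.042, -0.28 to 0.19).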

How the data were processed

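The authors aligned reads of DpnII-digested, oligonucleotide-captured 3C libraries to mm9 (Bowtie and Trim Galore are named in the submitters' processing notes, without versions) and deposited, per viewpoint and restriction fragment, values of the RPM kind, scaled to 100000 reporter reads of a viewpoint. Reads between captured fragments had been removed. Whole reads were recovered for 100% of values (tolerance 0.05 read), with 1088 to 25573 reporter reads per library and viewpoint. Values were rescaled to cis reads, leaving out 1 kb around each viewpoint, and the 2 runs of a time course replicate were averaged, since they shared molecules (chi-square per degree of freedom 0.376 to 0.834).

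Groups followed the labels. Two-sided exact permutation tests were used for shares (3 against 3 replicates, smallest p 0.1), or by exact sign flips over 6 replicates. For bins of 2 kb, limma 3.58.1 was run where the mean reached 50, on log2(value + 10), threshold 0.05 after Benjamini-Hochberg adjustment, and the steps were tested on simulated data. edgeR 4.0.16 and DESeq2 1.42.0 on the recovered first-run reads were alternatives, besides other bins, filters, scalings and left-out replicates. Both of these tools rescaled libraries by their own factors over the tested bins. Single libraries have 95% Wilson intervals; intervals and limits from 3 reads cover counting error only. Python 3.11.15 and R 4.3.3 were used.

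Regions named are the viewpoints, HS1, HS2, the 3 LCR fragments with the highest WT mean from each gene, called bins, and the globin and olfactory receptor genes. The members and lists were chosen with earlier results of these data known. HS60 and HS90 had been planned as intervals on uncaptured sites, but they were captured in the time course, WT and DKO, so a window widened by 2 kb was used. A column pooling both genes, 1 per library, was not used. Deviations of same-numbered replicates from their group means correlated at r -0.23 to 0.30, and those of different numbers at -0.34 to 0.19. These low values cannot show whether numbers pair samples, so samples were left unpaired and a replicate block was an alternative. Promoter sequences are RefSeq's (GRCm38.p6), each matched once in mm9.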

Additional observations from a re-analysis of the deposited data

Results flagged for a closer look

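Contacts of the adult genes were also visible from the other end, in 6 libraries outside the comparisons above that captured HS1 and HS2 and not the genes. These were 3 libraries of E14 mouse embryonic stem cells, which are not erythroid, and 3 of foetal liver erythroid cells, whose labels give both 30 h and 0 h as the time. They were singled out because the share of cis interactions that fell on each gene fragment and the 1 kb around it was above that of the stem cells. From HS1 the share at Hbb-b1 was 2.54 ± 0.681% in foetal liver and 0.399 ± 0.281% in stem cells (SD, n = 3 each), and at Hbb-b2 4.40 ± 0.317% and 1.27 ± 0.275%. From HS2 it was 2.93 ± 0.414% and 0.250 ± 0.0839% at Hbb-b1, and 3.90 ± 1.22% and 0.604 ± 0.111% at Hbb-b2.

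The ratios of means were 6.36, 3.46, 11.7 and 6.45. They are given as descriptions with no test, since the difference itself is why these values were singled out. The shares rest on 9 to 60 reads per library in foetal liver and 1 to 14 in stem cells. The stem cells are of another strain (129/Ola), and cell type and strain cannot be told apart here.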

How the results depend on the processing

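The LCR share at 30 h against 0 h kept its direction in all 14 alternatives from each gene (log2 0.29 to 0.52 from Hbb-b1, 0.13 to 0.34 from Hbb-b2). Leaving out each replicate gave 0.44 to 0.48 and 0.23 to 0.34. With the replicate block both had an exact p of 0.25, the smallest for 3 pairs, and the bins gave 0 calls in each comparison. Of 191 alternatives to the 18 planned share results 14 changed direction, and 4 of 96 for the 12 added later. Tests of 3 against 3 cannot pass 0.05 under any setting. The change of the LCR share from 0 h to 30 h, Hbb-b2 against Hbb-b1, was -0.18 (exact permutation p = 0.2) and -0.16 within 500 kb (p = 0.1).

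Small DKO against WT differences changed sign. For the LCR share this was 0.028 from Hbb-b1 without DKO replicate 1 (leaving out each replicate, -0.30 to 0.028), and from Hbb-b2 -0.12 scaled to all chromosomes and -0.0054 leaving out 5 kb (-0.034 to 0.078). The 3′ side from Hbb-b1 gave 0.059 within 500 kb (-0.16 to 0.020). HS90 gave 0.023 from Hbb-b1 without the 1 kb margin (-0.78 to 0.079) and from Hbb-b2 -0.037 scaled to all chromosomes and -0.035 without the margin (-0.47 to 0.35). Of the added intervals, between the genes from Hbb-b1 ranged from -0.47 to 0.026, and the LCR to HS60 from Hbb-b2 gave -0.019 (500 kb) and -0.027 (all chromosomes) at 30 h and 0.021 (500 kb) in DKO. The causes were not tested.

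With 1 of the 6 replicates left out, Hbb-b2 against Hbb-b1 gave 0.43 to 0.58 for the LCR share and -1.31 to -0.88 over the mirrored window (exact p = 0.0625, the smallest for 5). Within the experiments these were 0.21 and 0.81, and -1.86 and -0.39.

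Bins called moved with the tool, which also changed the scaling. From Hbb-b1 at 30 h edgeR called 5, DESeq2 3 and the second run 1, and leaving out a replicate 0 to 1 (1 without 0 h replicate 3). The 1 bin in DKO became 0 with a filter of 10, single fragments, 5 kb bins, DESeq2, the replicate block or all chromosomes, and 0 to 2 without a replicate (0 without WT replicate 2, 1 without DKO replicate 1, 2 without DKO replicate 2 or 3 or WT replicate 1 or 3). From Hbb-b2 edgeR called 2 at 30 h, and in DKO single fragments gave 1, edgeR 3, all chromosomes 1 and left-out replicates 0 to 1 (1 without DKO replicate 2). For HS60 and HS90 leaving out 5 kb was not run, since no bases remain. Their windows held 0 to 19 reads per WT or DKO library.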
